A study of Capra hircus with 20 samples.

Results

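The 4 tropomyosin genes of the goat, TPM1, TPM2, TPM3 and TPM4, were described transcript by transcript. The cultures are labelled by the study as intramuscular and subcutaneous preadipocytes and adipocytes. Every row of the deposited mRNA table with 1 of these 4 official symbols was taken, which gave 36 of the 43766 mRNA transcripts, among 57378 transcripts when lncRNAs are counted too. TPM1 had 18 of them (gene ID 102173472), TPM2 had 4 (102178827), TPM3 had 12 (102179435) and TPM4 had 2 (102180482). All 36 identifiers were found under the same symbols in the RefSeq table of assembly ARS1.2.

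The cells were isolated from the longissimus dorsi or the subcutaneous fat of 5 male Jianzhou Daer goats aged 7 days and used at passage 3. Cells collected at day 0 of induction are labelled intramuscular preadipocytes (IMPA) and subcutaneous preadipocytes (SPA). Those collected after 3 days in medium with oleic acid are labelled intramuscular adipocytes (IMA) and subcutaneous adipocytes (SA). All groups were grown in DMEM/F12 with fetal bovine serum, and each group gave 5 RNA libraries, 20 in all. The goat behind a replicate number was not named, so p-values measure the spread between these cultures.

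Values are FPKM, that is, fragments divided by transcript length and by the reads mapped in a library. FPKM totals ran from 527426 to 596669 per library, and tropomyosin transcripts made up between 0.332% and 0.895% of the mRNA part of that sum. The fragments behind a value are unknown, and transcripts of a gene share most of their exons, so the split of a gene among its transcripts is an estimate by software. A share below is the FPKM of a transcript as a percent of the sum of its gene in the same library. The identifiers do not say which exons a transcript holds, so no transcript is called a muscle or a non-muscle form here. These are bulk cultures, in which fewer cells of a type and less RNA per cell cannot be told apart.

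Tropomyosins are coiled-coil proteins that lie end to end along actin filaments and decide which other proteins reach the filament. In striated muscle they work with the troponin complex to make contraction depend on calcium, and in other cells they stabilise stress fibres and other actin bundles. Each gene makes several proteins through alternative promoters and exons, with forms that are typical of skeletal, smooth or non-muscle cells.

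The marker genes of the labelled cell types were read first. The summed FPKM of 8 adipocyte genes (ADIPOQ, LPL, PPARG and others) lay between 7.23 and 12.1 in all 20 libraries. Adipocyte markers were therefore low in the cells labelled preadipocytes and in those labelled adipocytes. Their sum was lower in IMA (at most 8.47) than in IMPA (at least 11.2), with no overlap, whereas SPA and SA overlapped. A group mean of at least 1 FPKM was reached by 2 of these genes in IMPA, 1 in IMA, 2 in SPA and 4 in SA. Only 2 of the 8 genes, CEBPA and CIDEC, were tested in the gene-sum fit described below. Changes of the others were not tested. CEBPA was called as lower in IMA than in IMPA (log2 change -0.68, adjusted p = 4.3e-06). It was also lower in SA than in SPA (log2 change -0.31, adjusted p = 0.0079), and CIDEC was called in neither comparison. Of all genes, 40.2% were called as lower in IMA than in IMPA and 26% as lower in SA than in SPA. The sum of 11 skeletal muscle genes (MYOD1, MYOG, DES, MYLPF, TTN and others) ranged from 2543 to 2936 in IMPA, from 8298 to 9006 in IMA, from 1.18 to 12.7 in SPA and from 0.708 to 2.88 in SA. In the gene-sum fit described below, 10 of these 11 genes rose and 1, MYOD1, fell from IMPA to IMA, where 19.9% of all genes rose and 40.2% fell. In SA, CKM, MYF5, MYH8, MYOD1 and TTN were near 0. Fibroblast and preadipocyte genes (DCN, PDGFRA, COL1A1, DLK1 and others) summed to between 839 and 1240 in the intramuscular groups and to between 4656 and 6548 in the subcutaneous groups. Of these, the preadipocyte gene DLK1 was under 0.1 FPKM in every IMPA and IMA library, which was not so in SPA or SA. Smooth muscle and myofibroblast genes (ACTA2, TAGLN and 4 others), which also use tropomyosins, summed to between 675 and 994 FPKM in the intramuscular and between 254 and 325 in the subcutaneous groups. The skeletal muscle sum moved with several tropomyosin results below. The smooth muscle and myofibroblast sum had a lower median in IMA than in IMPA (733 and 951 FPKM) and a higher 1 in SA than in SPA (311 and 275). The part of these sums in the tropomyosin results was not tested.

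All tropomyosin transcripts together reached 2718 ± 198 FPKM (SD, n = 5 libraries) in IMPA, 3453 ± 101 in IMA, 1411 ± 64.6 in SPA and 1346 ± 46.8 in SA. TPM1 was the largest part in the intramuscular groups, with 49.4% of the tropomyosin sum in IMPA and 44.8% in IMA. TPM4, the tropomyosin found mostly in non-muscle cells, was the largest part in the subcutaneous groups, with 53.8% in SPA and 50.7% in SA. TPM3 made up 6.90% of the tropomyosin sum in IMPA and 15.6% in IMA, against 4.01% in SPA and 4.25% in SA.

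**Figure D1:**
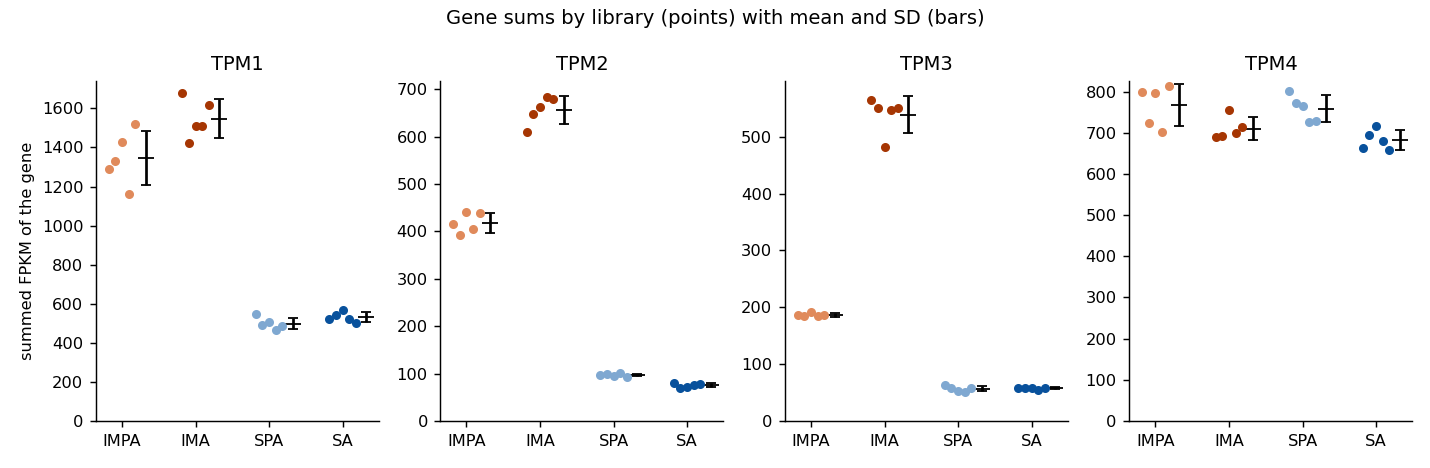
Summed FPKM of TPM1, TPM2, TPM3 and TPM4 (y axis, starting at 0 in each panel, with a different scale per gene) in IMPA, IMA, SPA and SA (x axis). Points are libraries and bars are the mean and SD of 5. TPM2 and TPM3 stand far above the other groups in IMA, and TPM4 stays between 657 and 814 FPKM in all libraries.

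The gene sums were compared with limma's moderated test on log2(summed FPKM + 1) over 11433 genes, with Benjamini-Hochberg adjustment and a threshold of 0.05. Between IMPA and IMA 3 of the 4 genes were called, all higher in IMA, where 60.1% of all genes were called (19.9% higher and 40.2% lower). TPM3 went from 187 ± 3.39 to 539 ± 33.0 FPKM, a log2 change of 1.52 ± 0.043 (SE, adjusted p = 1.1e-10). TPM2 went from 418 ± 20.8 to 656 ± 29.995, a log2 change of 0.65 ± 0.044 (adjusted p = 2.5e-07). TPM1 went from 1346 ± 137 to 1548 ± 100, a log2 change of 0.21 ± 0.069 (adjusted p = 0.023), and its groups overlapped. TPM1 lost its call with no filter on low values or without IMA 1, IMA 5 or IMPA 1 (adjusted p between 0.052 and 0.062). TPM4 had 767 ± 50.5 FPKM in IMPA and 710 ± 27.6 in IMA (log2 change -0.11, adjusted p = 0.068), and was called as lower without IMA 3, IMPA 2 or IMPA 4 (adjusted p between 0.018 and 0.044).

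Between SPA and SA 2 of the 4 gene sums were called, both lower in SA, where 52.1% of all genes were called (26.1% higher and 26% lower). TPM2 went from 96.9 ± 2.89 to 75.0 ± 4.25 FPKM (log2 change -0.37 ± 0.041, adjusted p = 1.1e-05). TPM4 went from 759 ± 32.0 to 682 ± 24.6 (log2 change -0.15 ± 0.040, adjusted p = 0.0071). TPM3 had 56.7 ± 4.80 FPKM in SPA and 57.1 ± 1.71 in SA (adjusted p = 0.82). TPM1 had 499 ± 30.4 and 532 ± 25.4 (adjusted p = 0.12), and was called as higher in SA once SPA 1 was left out (log2 change 0.13, adjusted p = 0.031).

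Against the subcutaneous groups, TPM1, TPM2 and TPM3 were higher in the intramuscular groups at both stages and TPM4 was not called at either. At day 0 the log2 differences of IMPA from SPA were 1.43 for TPM1, 2.098 for TPM2 and 1.71 for TPM3, with 3 of 4 genes called, all higher, and 75.1% of all genes called (42.3% higher and 32.9% lower). After induction the log2 differences of IMA from SA were 1.54, 3.11 and 3.21, with 3 of 4 genes called, all higher, and 72.4% of all genes called (29% higher and 43.4% lower). For TPM4 the log2 difference was 0.01 ± 0.048 at day 0 (adjusted p = 0.80) and 0.06 ± 0.042 at day 3 (adjusted p = 0.23), the latter 0.12 and called with upper-quartile scaling (adjusted p = 0.029). The order of the gene sums was therefore IMA, IMPA, SPA, SA for TPM2 with no overlap between neighbours, whereas SPA and SA overlapped for TPM1 and TPM3 and IMA and IMPA for TPM1.

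Of the 36 transcripts, 33 had a mean of at least 1 FPKM in at least 1 group, and the other 3 (XM_018054298.1 of TPM1, XM_013977053.2 and XM_018046156.1 of TPM3) never exceeded 3.23 FPKM. Levels were tested for the 30 transcripts that averaged 1 FPKM or more across all libraries, in a fit of 18414 transcripts. Shares were tested for the 27 transcripts that held at least 1% of their gene on average, as the arcsine of the square root of the share, in a fit of 20410 transcripts of 6246 genes with at least 2 transcripts. Between IMPA and IMA, 7 of the 30 levels were called, 3 higher and 4 lower in IMA, against 32.6% of all transcripts tested (11.7% higher and 20.9% lower). Of the 27 shares, 6 were called (2 higher and 4 lower) against 0.955% of all shares tested (0.47% higher and 0.485% lower), and all 6 belonged to TPM2 and TPM3.

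**Figure D2:**
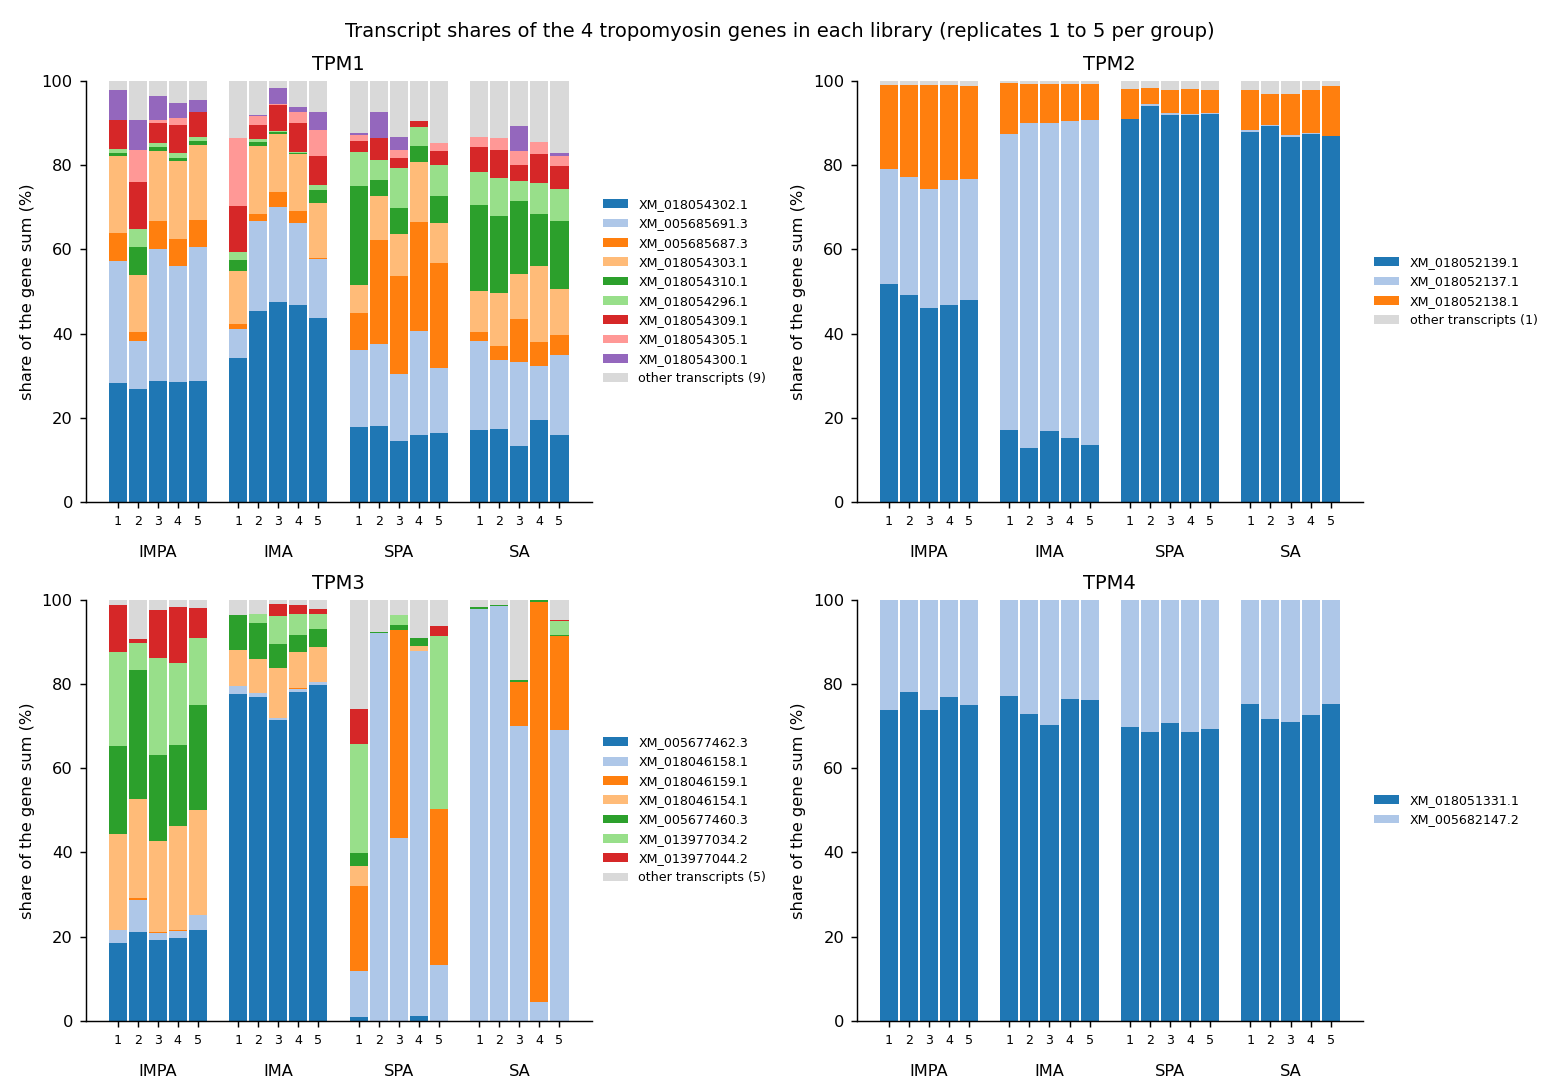
Share of each transcript in the sum of its gene (y axis, percent) for TPM1, TPM2, TPM3 and TPM4, with 1 stacked bar per library and replicates 1 to 5 side by side in IMPA, IMA, SPA and SA (x axis). Up to 9 transcripts per gene with a mean share of at least 5% in some group are drawn in their own colour and the rest are pooled in grey. In IMA a single transcript takes 74.6% of TPM2 and another 76.7% of TPM3 on average, while the TPM4 leader keeps group means between 69.5% and 75.5%.

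TPM2 encodes beta-tropomyosin and was divided among 4 transcripts. It was the only 1 of the 4 genes with 1 leading transcript throughout IMPA and another throughout IMA. XM_018052137.1 had 113, 110, 124, 121 and 126 FPKM in IMPA 1 to 5 and 427, 500, 484, 514 and 523 in IMA 1 to 5, with no overlap. In SPA it had at most 0.507 and in SA at most 0.3402 FPKM, and it was listed at 0 in SPA 1 and SA 5. From IMPA to IMA its level rose 4.13-fold in mean FPKM (log2 change 2.03 ± 0.061, adjusted p = 1.9e-08). Its share rose from 28.4% ± 0.963 to 74.6% ± 2.95, by 46.2 percentage points (adjusted p = 2.7e-05).

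The leading TPM2 transcript of the other groups, XM_018052139.1, went the other way. It had between 189 and 216 FPKM in IMPA and between 83.5 and 112 in IMA (log2 change -1.03 ± 0.076, adjusted p = 9.5e-06). Its share fell by 33.2 percentage points, from 48.4% ± 2.32 to 15.1% ± 1.89 (adjusted p = 0.00019). In SPA it held 92.2% ± 1.11 of TPM2 with 89.3 ± 3.06 FPKM, and in SA 87.7% ± 1.002 with 65.8 ± 3.50 FPKM. Its level fell from SPA to SA as well, with no overlap (log2 change -0.44 ± 0.039, adjusted p = 3e-05), by a mean of -23.5 FPKM where the TPM2 sum differed by -21.8.

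XM_018052138.1 also fell from IMPA to IMA, from 93.3 ± 10.3 to 63.0 ± 6.28 FPKM (log2 change -0.56 ± 0.085, adjusted p = 0.00081). Its share fell by 12.6 percentage points, from 22.3% to 9.64% (adjusted p = 0.0063). In the subcutaneous groups it had 5.39 ± 1.24 FPKM in SPA and 7.29 ± 1.53 in SA (adjusted p = 0.14). The fourth transcript, XM_005683842.3, was low throughout, with 4.13 ± 0.509, 4.21 ± 0.626, 1.87 ± 0.163 and 1.74 ± 0.546 FPKM in IMPA, IMA, SPA and SA.

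The leading transcript of TPM2 was XM_018052139.1 in each IMPA library and XM_018052137.1 in each IMA library. Such a change of leader, with 1 leader in all libraries of a group and another in all libraries of the other group, was found in 10 of 6246 genes (0.160%) between IMPA and IMA. TPM2 was the only tropomyosin gene with it. TPM1 and TPM3 also had 1 leader in all IMA libraries, but 2 and 3 different leaders among the IMPA libraries, so the rule could not count them. Between IMA and SA, TPM2 again was the only 1 of the 4 (0.993% of genes), and neither SA against SPA (0.192%) nor IMPA against SPA (0.785%) had a tropomyosin gene with such a change.

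**Figure D3:**
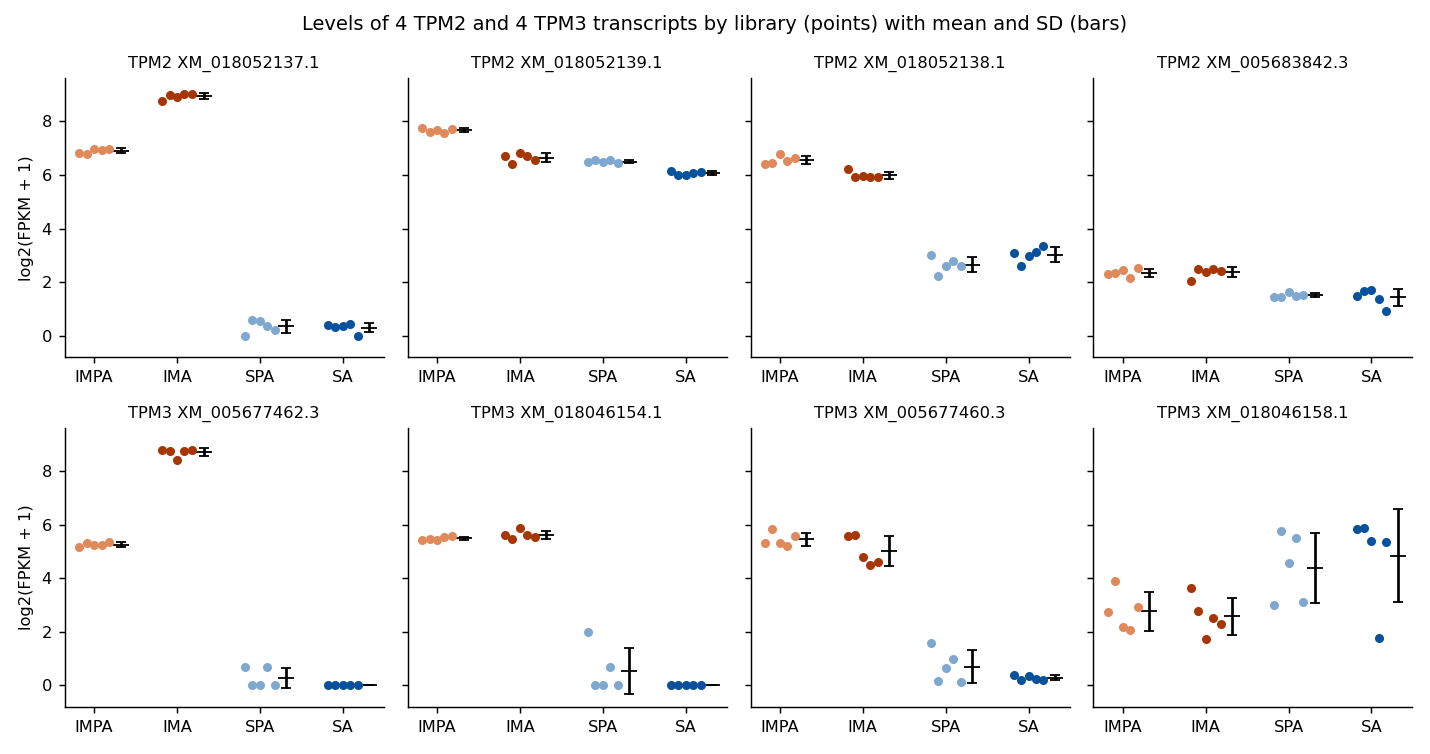
Level of the 4 TPM2 transcripts and of 4 TPM3 transcripts as log2(FPKM + 1) (y axis) in IMPA, IMA, SPA and SA (x axis), with 1 point per library and the mean and SD of 5 as bars. XM_018052137.1 and XM_005677462.3 rise from IMPA to IMA with tight groups and are near 0 in SPA and SA, whereas XM_018046158.1 is spread widely in SPA and SA.

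TPM3, which in other mammals gives the alpha-tropomyosin of slow muscle fibres as well as non-muscle forms, was divided among several transcripts in IMPA and dominated by 1 in IMA. XM_005677462.3 had 34.5, 38.7, 36.7, 36.4 and 40.1 FPKM in IMPA 1 to 5 and 438, 423, 344, 427 and 440 in IMA 1 to 5. It was listed at 0 in SPA 2, 3 and 5 and in all SA libraries, and had 0.596 and 0.624 FPKM in SPA 1 and SPA 4. From IMPA to IMA its mean FPKM rose 11.1-fold (log2 change 3.44 ± 0.071, adjusted p = 1.8e-09). Its share rose from 19.98% ± 1.29 to 76.7% ± 3.17, by 56.7 percentage points (adjusted p = 8.2e-06).

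Among the 8 TPM3 transcripts tested, this was the only level called between IMPA and IMA. XM_018046154.1 had 43.9 ± 2.05 FPKM in IMPA and 48.5 ± 5.31 in IMA (adjusted p = 0.16), and its share fell by 14.5 percentage points from 23.5% to 9.07% (adjusted p = 0.0029). XM_005677460.3 had 43.2 ± 8.22 FPKM in IMPA and 33.3 ± 13.1 in IMA (adjusted p = 0.22), and its share fell by 17.0 percentage points, from 23.2% to 6.15% (adjusted p = 0.0087). These 2 transcripts were also listed at or near 0 in the subcutaneous groups, where XM_018046154.1 was at 0 in all SA libraries and XM_005677460.3 had at most 2.03 FPKM in SPA and 0.321 in SA.

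The other intramuscular TPM3 transcripts were not called between IMPA and IMA, and varied widely between libraries. XM_013977034.2 ranged from 12.2 to 44.4 FPKM in IMPA and from 0 to 31.8 in IMA, XM_013977044.2 from 1.55 to 24.6 and from 0 to 13.9, and XM_018046155.1 from 1.51 to 15.2 and from 4.28 to 18.9. The first and second of these were low in IMPA 2, where XM_018046155.1 and XM_005677460.3 had their highest IMPA values. Added up, XM_005677460.3, XM_013977034.2, XM_013977044.2 and XM_018046155.1, put together after their values had been seen, had 97.6 ± 9.44 FPKM in IMPA and 69.1 ± 7.32 in IMA. Without IMPA 2, which lay apart in these transcripts, the level of XM_018046155.1 was called as higher in IMA (log2 change 1.61, adjusted p = 0.018), and the shares of XM_013977044.2 (adjusted p = 0.039) and XM_013977034.2 (adjusted p = 0.046) as lower. The latter share was also called with a gene sum of at least 10 FPKM (adjusted p = 0.044). XM_018046157.1, XM_018046159.1 and XM_005677461.3 stayed below 1 FPKM in every intramuscular library.

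In the subcutaneous groups TPM3 was read mainly as 2 transcripts that stood in for each other. XM_018046158.1 had 6.92, 53.7, 22.6, 44.7 and 7.68 FPKM in SPA 1 to 5 and 56.2, 57.1, 40.9, 2.40 and 39.8 in SA 1 to 5. XM_018046159.1 had 12.7, 0, 25.9, 0 and 21.4 in SPA and 0, 0, 6.07, 51.5 and 12.9 in SA. In SA 4, where the former was lowest, the latter was highest, and their sum was 53.9 FPKM, within the range of 47.0 to 57.1 of the other SA libraries.

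The sum of both, a pair again chosen after the values had been seen, held 93.5% ± 7.997 of TPM3 in SA and 70.5% ± 28.3 in SPA. In SPA it was lowest in SPA 1 (19.6 FPKM) and SPA 5 (29.1), in which XM_013977034.2 had 16.4 and 23.7 FPKM. SPA 1 also had the highest XM_018046157.1 (6.03 FPKM), XM_013977044.2 (5.28), XM_018046155.1 (3.12) and XM_005677461.3 (2.41) of the SPA group. None of the 8 TPM3 levels or shares tested was called between SPA and SA.

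TPM1, the source of the main alpha-tropomyosin of muscle, had the most transcripts. XM_018054302.1 had 364, 356, 412, 330 and 439 FPKM in IMPA 1 to 5 and 576, 647, 719, 708 and 708 in IMA 1 to 5, with no overlap. It rose 1.77-fold in mean FPKM (log2 change 0.82 ± 0.089, adjusted p = 0.00011). Its share went from 28.3% ± 0.866 to 43.6% ± 5.41 and did not pass the threshold (adjusted p = 0.061). It passed with no minimum share (adjusted p = 0.049), with a gene sum of at least 10 FPKM (0.017), with all 4 groups in the fit (0.0055) and without IMA 1 (0.013), the IMA library with the lowest share. In SPA and SA the transcript had 82.5 ± 10.7 and 88.5 ± 10.5 FPKM, and 16.5% and 16.7% of the gene.

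The next TPM1 transcripts did not change detectably with intramuscular induction. XM_005685691.3 had 355 ± 129 FPKM in IMPA and 256 ± 88.9 in IMA (adjusted p = 0.38), and 93.3 ± 15.7 and 95.1 ± 18.7 in SPA and SA. XM_018054303.1 had 229 ± 34.2 and 213 ± 9.23 in the intramuscular groups (adjusted p = 0.49) and 50.002 ± 10.5 and 65.8 ± 17.5 in the subcutaneous groups. Only the weaker XM_018054299.1 was called as lower in IMA, with 18.1 ± 2.63 FPKM in IMPA and 10.1 ± 5.03 in IMA (log2 change -0.88 ± 0.27, adjusted p = 0.029), but its groups overlapped. That call was lost with no filter and without IMA 3, IMA 4, IMPA 2, IMPA 3 or IMPA 5 (adjusted p up to 0.071). XM_005685687.3 had 86.2, 27.5, 93.7, 74.2 and 98.03 FPKM in IMPA 1 to 5 and 20.3, 25.5, 53.0, 40.7 and 3.33 in IMA 1 to 5, which overlapped through IMPA 2. Its log2 change of -1.66 was not called (adjusted p = 0.080), and it was called as lower with all 4 groups in the fit (adjusted p = 0.032) and without IMA 3 or IMPA 2 (adjusted p = 0.048 for both).

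A set of TPM1 transcripts rose and fell together from library to library within a group. XM_018054305.1 had 0.0315, 102, 8.37, 18.6 and 0.386 FPKM in IMPA 1 to 5 and 270, 30.6, 0.108, 37.6 and 99.0 in IMA 1 to 5. XM_018054307.1 and XM_018054308.1 were likewise highest in IMPA 2 and in IMA 1, at 49.1 and 38.4 FPKM in IMPA 2 and at 110 and 65.8 in IMA 1. The sum of the 3, chosen after the values had been seen, ran from 0.219 to 190 FPKM in IMPA and from 0.360 to 446 in IMA.

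In the same libraries XM_005685691.3 was lowest, with 153 FPKM in IMPA 2 against 323 to 481 in the other IMPA libraries and 114 in IMA 1 against 227 to 339 in the other IMA libraries. The TPM1 sum of these libraries was 1329 FPKM, inside the IMPA range, and 1679 FPKM, the highest of IMA. In SPA the 3 transcripts were near 0 in SPA 2 and SPA 4 (sums of 0.0708 and 0.0390 FPKM), and in SA their sum stayed between 28.6 and 41.9 FPKM.

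**Figure D4:**
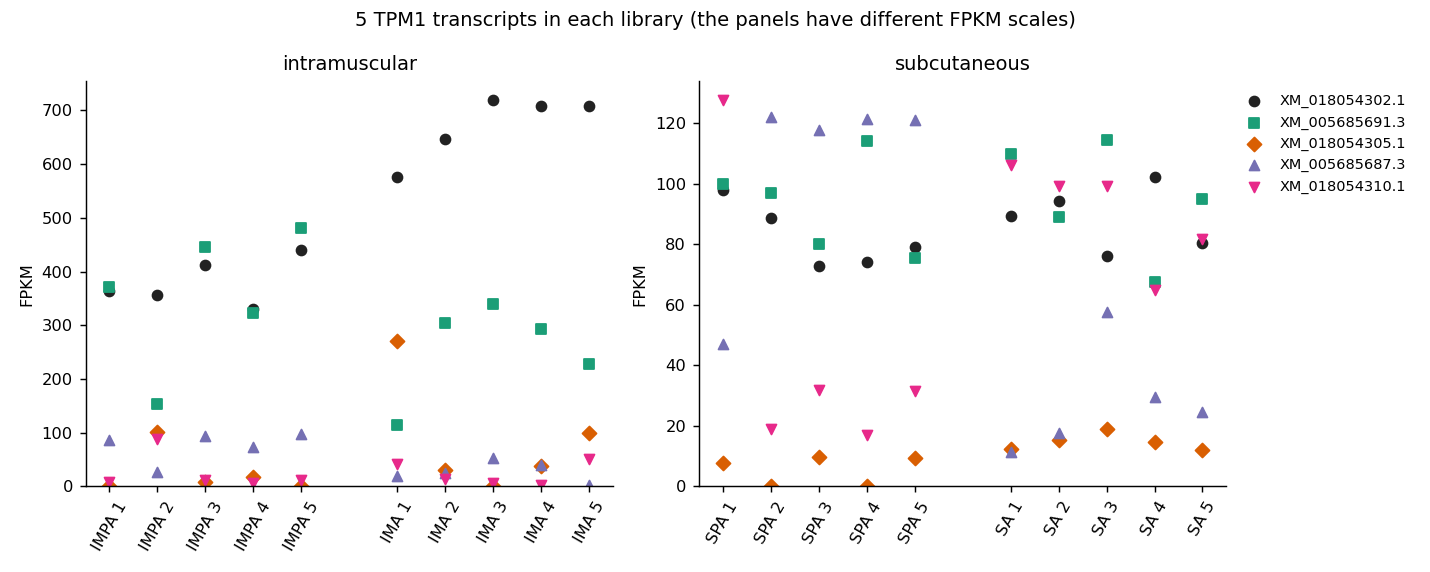
FPKM (y axis, with a different scale per panel) of 5 TPM1 transcripts in each intramuscular library (left) and subcutaneous library (right), with libraries along the x axis and 1 symbol per transcript. XM_018054305.1 is high where XM_005685691.3 is low in IMPA 2 and IMA 1, and SPA 1 lies apart from the other SPA libraries, with 127.5 FPKM of XM_018054310.1 and 47.2 FPKM of XM_005685687.3.

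Between SPA and SA 5 of the 30 transcript levels were called, 1 higher and 4 lower in SA, against 25.9% of all transcripts (14.6% higher and 11.3% lower), and 3 of the 5 belonged to TPM1. XM_005685687.3 had 47.2, 122, 118, 121 and 121 FPKM in SPA 1 to 5 and 11.3, 17.7, 57.5, 29.4 and 24.7 in SA 1 to 5. It was lower in SA by a log2 change of -1.99 ± 0.43 (adjusted p = 0.007), and by -2.26 without SPA 1 (adjusted p = 0.0033). XM_018054310.1 had 127.5, 19.0, 32.0, 16.9 and 31.5 FPKM in SPA and 106, 99.4, 99.2, 64.7 and 81.8 in SA. Its log2 change of 1.38 did not pass (adjusted p = 0.065), and without SPA 1 it was 1.85 and called (adjusted p = 0.00053).

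Thus for both transcripts SPA 1 lay among or beyond the SA libraries. SPA 1 and SA 5 also stand apart from the other subcutaneous libraries in the read filtering statistics of the study, and they had the highest muscle marker sums of SPA (12.7 FPKM) and SA (2.88 FPKM). Whether these bear on their TPM1 division was not tested. The other TPM1 calls were XM_018054309.1, higher in SA (15.2 ± 6.64 against 30.4 ± 6.10 FPKM, log2 change 1.03, adjusted p = 0.022), and XM_018054295.1, lower in SA (3.58 ± 0.203 against 2.11 ± 0.760 FPKM, log2 change -0.59, adjusted p = 0.021). Both lost their call without SPA 1 and SA 5 (adjusted p = 0.069 and 0.051), the former also with no filter or without SA 2 or SPA 3.

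None of the 27 shares was called between SPA and SA with limma, where 0.240% of all shares were called. The share of XM_005685687.3 was 21.6% ± 7.29 in SPA and 5.21% ± 3.04 in SA (adjusted p = 0.21), and was called without SPA 1 (adjusted p = 0.025) and with all 4 groups in the fit (adjusted p = 0.015). The share of XM_018052139.1 in TPM2 went from 92.2% to 87.7% with no overlap, without a call (adjusted p = 0.17).

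The remaining TPM1 transcripts were low or uneven. XM_018054296.1 had 23.0 ± 19.1, 14.6 ± 11.8, 34.1 ± 11.7 and 38.6 ± 7.61 FPKM in IMPA, IMA, SPA and SA, and XM_018054301.1 had 16.3 ± 14.1, 30.1 ± 17.8, 17.9 ± 6.56 and 22.2 ± 10.5. XM_018054300.1 had 71.5 ± 25.9 FPKM in IMPA and was listed at 0 in 1 IMA, 2 SPA and 3 SA libraries. XM_018054304.1 and XM_018054306.1 had group means between 1.34 and 6.88 FPKM, and XM_018054297.1 reached 1.06 FPKM in SA only. None of these was called in either stage comparison.

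TPM4 had the same leading transcript in all 20 libraries. XM_018051331.1 held 75.5% ± 1.89 of the gene in IMPA, 74.6% ± 2.94 in IMA, 69.5% ± 0.901 in SPA and 73.1% ± 1.99 in SA, and XM_005682147.2 held the rest. The level of XM_018051331.1 went from 578 ± 27.2 to 529 ± 15.1 FPKM from IMPA to IMA (log2 change -0.13 ± 0.037, adjusted p = 0.024), with overlap between the groups. This call was lost with no filter, with no variance trend and without IMA 2, IMPA 1, IMPA 3 or IMPA 5 (adjusted p up to 0.067). The level of XM_005682147.2 was lower in SA, with 223 to 242 FPKM in SPA and 163 to 208 in SA (log2 change -0.34 ± 0.070, adjusted p = 0.006). The level of XM_018051331.1 was not called between SPA and SA. It was called as lower in SA with upper-quartile scaling (log2 change -0.14, adjusted p = 0.0041). The same held with values rescaled without LNC_010228 (log2 change -0.16, adjusted p = 0.0027). No TPM4 share was called in any comparison. The share of XM_018051331.1 lay between 68.6% and 70.8% in SPA, below the 73.8% to 78.1% of IMPA and the 71.0% to 75.3% of SA with no overlap (adjusted p = 0.12 and 0.60). Against IMPA it was called on untransformed shares (adjusted p = 0.044) and with a gene sum of at least 10 FPKM (adjusted p = 0.043).

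Between the depots 18 of the 30 levels were called at day 0 (15 higher and 3 lower in IMPA), where 50.9% of all transcripts were called (29.3% higher and 21.6% lower). After induction 20 were called (15 higher and 5 lower in IMA), against 46.3% of all (19.3% higher and 27.1% lower). Shares were called for 10 of 27 at day 0 (6 higher and 4 lower in IMPA), against 5.28% of all shares (3.08% higher and 2.2% lower), and for 11 of 27 after induction (5 higher and 6 lower in IMA), against 5.11% (2.96% higher and 2.15% lower). In TPM2 the share of XM_018052139.1 differed by -43.8 percentage points in IMPA from SPA (adjusted p = 7.5e-07) and by -72.5 points in IMA from SA (adjusted p = 1.8e-07). XM_018052137.1 was 28.1 points higher in IMPA than in SPA (adjusted p = 5.1e-07) and 74.2 points higher in IMA than in SA (adjusted p = 1.2e-07). XM_018052138.1 was 16.7 points higher in IMPA than in SPA (adjusted p = 0.00013), and in IMA and SA it held 9.64% and 9.66% of TPM2. The minor XM_005683842.3 held 0.639% in IMA and 2.35% in SA (adjusted p = 0.047), a call that was lost without any single library other than SA 5.

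In TPM3, XM_005677462.3, XM_018046154.1 and XM_005677460.3 had higher shares in the intramuscular groups at both stages, and XM_018046158.1 had a lower share in IMA (1.02%) than in SA (68.0%, adjusted p = 0.037). That last call was lost on untransformed shares and without any single IMA or SA library other than SA 4 (adjusted p between 0.051 and 0.086). In TPM1 the share of XM_018054302.1 was higher in the intramuscular groups at both stages, by 11.7 points at day 0 (adjusted p = 0.0064) and by 26.9 points at day 3 (adjusted p = 0.00088). XM_018054299.1 and XM_018054296.1 had lower shares in the intramuscular groups at both stages, XM_005685687.3 at day 0 (5.63% in IMPA and 21.6% in SPA) and XM_018054310.1 at day 3 (1.46% in IMA and 16.9% in SA). At day 0 the share calls of XM_018054296.1, XM_018054299.1 and XM_005685687.3 each depended on single libraries: they were lost without any single IMPA or SPA library other than IMPA 2, SPA 2 and SPA 4 for the first, SPA 1, SPA 2 and SPA 3 for the second, and IMPA 1, IMPA 4 and SPA 1 for the last.

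The intramuscular and the subcutaneous change with induction were then compared with each other over all 20 libraries. The difference of the changes was called for 6 of 30 levels, against 31.0% of all transcripts, and for 5 of 27 shares, against 0.495% of all shares. It was also called for 2 of 4 gene sums, TPM2 and TPM3, against 55.3% of all genes. Shares were called for XM_018052137.1, XM_018052139.1 and XM_018052138.1 of TPM2 and for XM_005677462.3 and XM_005677460.3 of TPM3. With log2 ratios to the rest of the gene in place of arcsine values, XM_018052137.1 (adjusted p = 0.092) and XM_005677460.3 (adjusted p = 0.57) lost their call. The level of XM_018054302.1 of TPM1 was called too (log2 difference 0.72 ± 0.14, adjusted p = 0.00057), and its share was not (adjusted p = 0.11). That share was called with a gene sum of at least 10 FPKM (adjusted p = 0.027) and without IMA 1 (adjusted p = 0.021). The share of XM_018046154.1 of TPM3, not called in the main fit, was called on untransformed shares (adjusted p = 0.00012) and without SPA 1 (adjusted p = 0.023). The last level called was XM_018054299.1 (adjusted p = 0.038), which lost its call when any of 11 single libraries was left out. That level call was also lost with lower filters and with the other scalings (adjusted p between 0.0504 and 0.078). The share of XM_005677460.3 (adjusted p = 0.038) lost its call for 12 of the 20 libraries.

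**Figure D5:**
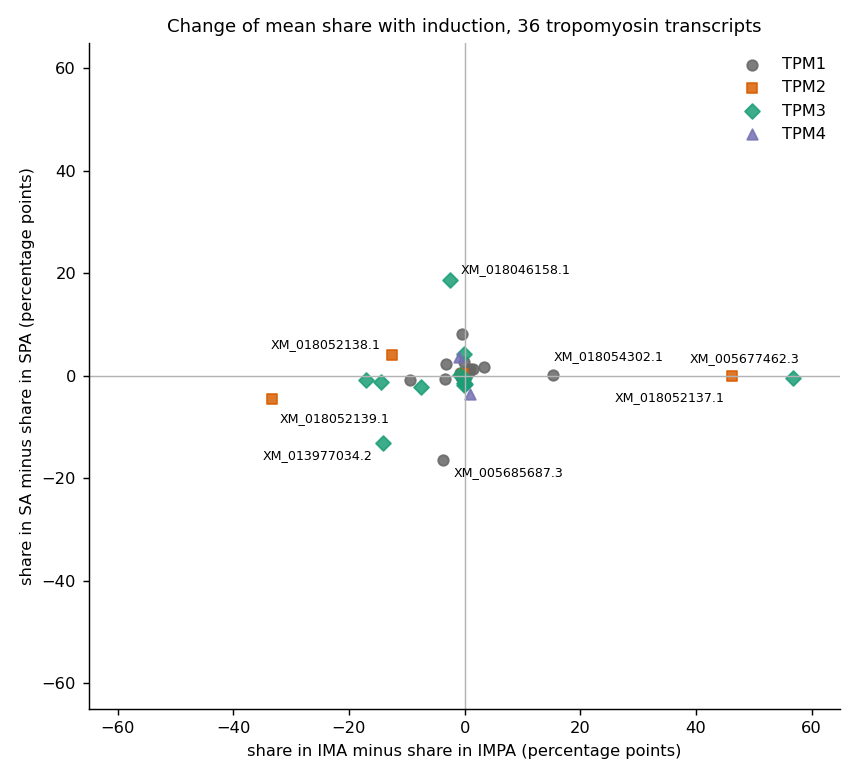
Mean share in IMA minus mean share in IMPA (x axis, percentage points) against mean share in SA minus mean share in SPA (y axis, percentage points) for the 36 tropomyosin transcripts, with 1 symbol per gene. XM_005677462.3 and XM_018052137.1 lie far to the right near the horizontal line, with gains of 56.7 and 46.2 points in intramuscular cells and almost none in subcutaneous cells.

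The 3 transcripts with the largest gain in FPKM from IMPA to IMA, picked for that gain and so not tested, were XM_005677462.3, XM_018052137.1 and XM_018054302.1, 1 from each of TPM3, TPM2 and TPM1. Together they had between 488 and 605 FPKM in IMPA and between 1441 and 1671 in IMA, or 19.7% ± 0.603 and 45.7% ± 2.94 of the tropomyosin sum. The other 33 transcripts together had 2181 ± 150 FPKM in IMPA and 1878 ± 138 in IMA. In SPA and SA the 3 held 5.87% ± 0.544 and 6.604% ± 0.863, nearly all of it XM_018054302.1.

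How far transcripts and gene sums agree between replicates differed by gene. The coefficient of variation of the TPM1 sum was between 4.78% and 10.2% in the 4 groups, and the median over its transcripts that averaged 1 FPKM or more in the group was 60.3% in IMPA, 74.0% in IMA, 40.3% in SPA and 21.9% in SA. Over all transcripts of that level the median was between 20.6% and 24.7%. For TPM3 the median over transcripts was 39.1%, 56.6%, 99.4% and 153%, with sums that varied by 1.82% to 8.47%. The transcripts of TPM2, with medians between 8.49% and 20.9%, and of TPM4, between 4.50% and 9.12%, were as tight as or tighter than most.

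Partners of tropomyosin on the actin filament were read from a list of 39 genes, of which 38 were tested as gene sums and 3, ACTA1, ACTA2 and CNN1, were also among the skeletal or smooth muscle markers. From IMPA to IMA 19 rose and 13 fell, where 19.9% of all genes rose and 40.2% fell, with a median log2 change of 0.09 against -0.09 for all genes. The largest changes were in troponin subunits, TNNI2 (11.3 ± 1.51 to 134 ± 23.7 FPKM, log2 change 3.45, adjusted p = 9.3e-10), TNNT3 (122 ± 8.44 to 947 ± 52.7, log2 change 2.95, adjusted p = 3.6e-12) and TNNT1 (142 ± 9.33 to 682 ± 23.0, log2 change 2.26, adjusted p = 8.9e-12). From SPA to SA 6 rose and 13 fell, where 26.1% of all genes rose and 26% fell, with a median of -0.14 against -0.01. There the largest changes were in TMOD1, which caps actin filaments at the slow-growing end (8.71 ± 0.561 to 2.18 ± 0.267 FPKM, log2 change -1.61, adjusted p = 1.2e-09), the actin crosslinker ACTN2 (log2 change -0.89, adjusted p = 6e-07) and the calponin CNN2 (log2 change -0.75, adjusted p = 3.3e-08). TMOD1 and ACTN2 rose from IMPA to IMA (log2 changes 0.82 and 1.73).

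Splicing factors were read from a list of 20 genes, drawn up here as reported to act on tropomyosin exons, 16 of which were tested. Whether each of them acts on these exons in the goat was not examined. From IMPA to IMA 2 of the 16 rose and 8 fell, where 19.9% of all genes rose and 40.2% fell, and the median log2 change was -0.12 against -0.09 for all genes. PTBP1, a repressor of muscle exons in tropomyosin genes, fell from 41.9 ± 2.81 to 28.0 ± 0.751 FPKM (log2 change -0.56, adjusted p = 1.2e-06). HNRNPH1 fell by 0.57 on the log2 scale (adjusted p = 3.5e-06) and SRSF1 fell by 0.54 (adjusted p = 2.9e-07). From SPA to SA 3 rose and 2 fell, where 26.1% of all genes rose and 26% fell, and the largest changes were in HNRNPA1 (log2 change 0.34, adjusted p = 7.4e-06), HNRNPH1 (0.22, adjusted p = 9.3e-05) and SRSF1 (0.21, adjusted p = 0.0019). The 2 factors that rose from IMPA to IMA were MBNL2 (31.2 ± 1.73 to 41.3 ± 1.03 FPKM, adjusted p = 8.8e-06) and RBM20 (2.66 ± 0.292 to 3.77 ± 0.461 FPKM, adjusted p = 0.0012), which are named here after their values were seen. Whether any of these levels bears on the tropomyosin shares was not tested.

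Likeness of pattern was measured as the root mean square difference of centred log2(FPKM + 1) profiles over the 20 libraries, among 18384 other transcripts. The nearest to XM_018052137.1 of TPM2 were LOC102181869 (0.27), TNNT1 (0.34) and TNNC2 (0.36), where the median over all transcripts was 3.90. The nearest to XM_005677462.3 of TPM3 were SMPX (0.51), TNNC2 (0.55) and MYL6B (0.57, median 3.68). For XM_018054302.1 of TPM1 they were SLC6A13 (0.14), LNC_008467 (0.17) and INPP4B (0.18, median 1.38), all at far lower levels. For XM_018052139.1 of TPM2 they were PLCB3, PLEKHG4 and UPK1B (0.16 to 0.20, median 0.70). The TPM4 transcripts were nearest to evenly expressed genes, XM_018051331.1 to EIF3L, P97BCNT and PSMD2 (0.05 to 0.06) and XM_005682147.2 to TTC14, UTP15 and RSU1 (0.11 to 0.13).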

How the data were processed

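RNA of 20 cultures, 5 in each of IMPA, IMA, SPA and SA, was sequenced by the authors with a strand-specific protocol. Reads were aligned by the authors to the goat assembly ARS1 with HISAT2 2.0.4. For the FPKM values the paper names StringTie 1.3.1, Ballgown and Cuffdiff, without saying which gave the deposited values per transcript and library. GATK 2.6-5 is also listed in the submitters' processing notes, without a role. No counts were given, and nothing was realigned.

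Shares and gene sums were computed from these FPKM values. Levels, as log2(FPKM + 1), gene sums and arcsine square root shares were tested with limma 3.58.1 in R 4.3.3, with a variance trend and Benjamini-Hochberg adjustment over all features of a fit of 10 libraries, or of 20 for the difference of 2 stage changes. Transcripts and genes had to average 1 FPKM or more across all libraries, and shares 1% or more. The steps were tested on simulated data. Tables and figures were made with Python 3.11.15, pandas 2.3.3, numpy 2.4.6 and matplotlib 3.10.9.

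Libraries were grouped by GEO's labels. Transcripts were named where a group mean reached 1 FPKM, and from each list of partner genes the 3 with the largest change among those called in a stage comparison. The members and the lists were chosen with earlier results of these data known. Alternatives were other pseudocounts, filters, scalings and forms of the share, the fit without a variance trend, with all groups or with a replicate block, and leaving out libraries. Shares summed over transcripts with a common first or last exon, which had been planned, were not computed, because no exon annotation was used here. In the study's statistics a larger share of reads mapped in every IMPA library than in any library of the other groups. The mapped share was also smaller in SA than in SPA or IMA, with no overlap. It therefore cannot be told apart from stage or from depot in the comparisons made here.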

Additional observations from a re-analysis of the deposited data

Results flagged for a closer look

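In 127 groups of 5 libraries, made up of the gene sums and named transcripts with a group mean of 1 FPKM or more, 19 held a library far from the other 4, by Dixon's test at the 95% level (the gap to the nearest library divided by the range above 0.71). Chance alone gives such a gap in about 1 in 20 groups, and transcripts of a gene are not independent of each other.

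IMPA 2 stood out for 8 transcripts. In TPM1 it had 147 FPKM of XM_018054309.1, 88.0275 of XM_018054310.1, 102 of XM_018054305.1, 57.1 of XM_018054296.1, 49.1 of XM_018054307.1, 38.4 of XM_018054308.1 and 3.39 of XM_018054304.1, each the highest of IMPA. In TPM3 it had 15.2 FPKM of XM_018046155.1, again the highest.

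SPA 1 stood out for 4 transcripts, with 47.2 FPKM of XM_005685687.3 as the lowest of SPA, and 127.5 of XM_018054310.1, 5.28 of XM_013977044.2 and 6.03 of XM_018046157.1 as the highest. SA 3 had the highest XM_018054300.1 of SA (33.0461 FPKM) and the highest XM_018051331.1 of TPM4 (509 FPKM). SA 4 had the highest XM_018046159.1 (51.5 FPKM) and the lowest TPM3 sum of SA (54.2 FPKM). IMA 1 had the highest XM_018052138.1 of IMA (74.1 FPKM), and IMA 3 had the lowest XM_005677462.3 (344 FPKM) and the lowest TPM3 sum (481 FPKM).

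The change from IMPA to IMA differed from the change from SPA to SA in 13 results of the limma fit over 20 libraries. On the log2 scale the gene sums differed by 1.01 for TPM2 (adjusted p = 1.02e-11) and 1.51 for TPM3 (adjusted p = 1.37e-13). The levels differed by 3.71 for XM_005677462.3 of TPM3 (adjusted p = 1.51e-11) and, in TPM2, by 2.07 for XM_018052137.1 (2.33e-09), -0.59 for XM_018052139.1 (3.87e-05) and -0.93 for XM_018052138.1 (0.000948). In TPM1 they differed by 0.72 for XM_018054302.1 (0.000567) and -0.87 for XM_018054299.1 (0.0375). On the arcsine square root scale the shares differed by 0.65 for XM_005677462.3 (5.17e-08), 0.48 for XM_018052137.1 (5.84e-07), -0.29 for XM_018052139.1 (0.00026), -0.25 for XM_018052138.1 (0.00026) and -0.21 for XM_005677460.3 (0.0384).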

How the results depend on the processing

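Of 101 calls on tropomyosin levels, shares and gene sums, 74 were kept in all alternatives and 27 were lost in at least 1, and no called value changed sign. Leaving out 1 library at a time gave 5 to 8 level calls for IMA against IMPA, 4 to 7 for SA against SPA, 15 to 20 for IMPA against SPA, 17 to 21 for IMA against SA and 5 to 7 for the difference of the changes. For shares it gave 6 to 8, 0 to 1, 7 to 9, 9 to 10 and 4 to 6 calls, and for gene sums 10 to 12 in place of 11. With all 4 groups in the fit 1 share was called between SPA and SA, and 3 shares for the difference of the changes with log2 ratios in place of arcsine values. Upper-quartile scaling moved the median of all transcripts by 0.12 between IMA and SA and by less elsewhere.

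Libraries with the same replicate number did not deviate together (correlations between -0.041 and 0.059, with 1 or 2 of 5 closest to their own number). With the replicate block 2 shares were called for IMA against IMPA in place of 6, and 6 for IMPA against SPA in place of 10. The calls lost for IMA against IMPA were the shares of XM_018052139.1 (adjusted p = 0.054), XM_018052138.1 (0.21), XM_005677460.3 (0.10) and XM_018046154.1 (0.16), and for IMPA against SPA the 4 TPM1 shares (0.11 to 0.17). The block also ended the level calls of XM_018054295.1 for SA against SPA (0.063) and XM_018051331.1 for IMA against SA (0.067) and 4 other share calls (0.068 to 0.18), and it added XM_018054303.1 for SA against SPA (0.0051) and the TPM4 sum for IMA against IMPA (0.041). Shares summed over transcripts with common exons were not run. The cause of these differences was not tested. Without counts, the depth that limits the low transcripts is unknown.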
